A study of Homo sapiens with 7 samples.

Results

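Small nuclear RNA genes are very short genes that encode the RNA components of the spliceosome and a few other nuclear RNA machines. The U1, U2, U4, U5, U11 and U12 genes are transcribed by RNA polymerase II, whereas U6, U6atac, RN7SK, RMRP and RPPH1 are transcribed by RNA polymerase III from promoters that lie wholly upstream of the gene. Both kinds of promoter carry a distal sequence element with an octamer motif, the site read by the POU factors OCT1 and OCT2, and a proximal sequence element read by the SNAPc complex. In the polymerase III type a TATA box stands close to the proximal element and fixes the choice of polymerase.

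The genes described here were taken from the RefSeq annotation of GRCh38.p14 as all those of biotype snRNA on chromosomes 1 to 22 and X, together with RN7SK, RMRP and RPPH1. The rule found 151 of 58419 annotated genes. Of these, 33 were polymerase II types, 9 were polymerase III types and 109 belonged to neither list. The polymerase II types held 21 U1 genes (4 RNU1 genes and 17 variant U1 genes named RNVU1), 3 U2, 2 U4, 5 U5, 1 U11 and 1 U12 gene. The polymerase III types held 5 U6 genes, RNU6ATAC, RN7SK, RMRP and RPPH1. The remaining 109 were RNU4ATAC, RNU7-1, 28 SNAR genes (small NF90-associated RNAs) and 79 genes with LOC placeholder symbols, for which the annotation used here gives no type and which are called untyped.

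Chromatin immunoprecipitation followed by sequencing (ChIP-seq) had been carried out in OCI-Ly7, an established human cell line of diffuse large B-cell lymphoma, grown in suspension without any treatment named in the labels. The peak lists were those of MED1 (a Mediator subunit), the paralogous acetyltransferases CREBBP and EP300, OCA-B (POU2AF1, the lymphoid coactivator that joins POU factors on octamer sites), OCT2 (POU2F2) and OCT1 (POU2F1). Every list was called against 1 common input library. Each factor had 1 library of 1 cell line, so no value below has a replicate error and no test between conditions was possible.

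The 6 lists held 23571 (OCT1) to 82569 (EP300) peaks on these chromosomes, from 12357450 (CREBBP) to 27885791 (EP300) tags after filtering. Peak positions, pileups (the number of overlapping fragments at the summit) and fold enrichments over the input are the values of the authors' peak caller. Antibody, depth and the share of duplicate tags given to the peak caller differed between the lists, although 1 tag was kept per position in all. Folds of different lists therefore do not rank the factors. Near-identical copies of these genes share reads, and how reads that map to several copies were placed is not given in the sources used here, so a value for 1 copy is uncertain. The lists measure binding and not RNA, so neither the identity of the line nor the output of any gene could be checked from them.

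A gene was counted as having a peak where a peak reached, by at least 1 base, into the window from 1 kb before to 1 kb after either gene end. Over all annotated genes this held for 18.5% (MED1), 17.5% (CREBBP), 25.8% (EP300), 24.6% (OCA-B), 23.6% (OCT2) and 20.5% (OCT1), and for 11.1% in all 6 lists. Of the 151 members, 62 had a MED1 peak (41.1%), 63 a CREBBP peak (41.7%), 65 an EP300 peak (43.0%), 68 an OCA-B peak (45.0%), 66 an OCT2 peak (43.7%) and 61 an OCT1 peak (40.4%). The same 59 members (39.1%) had a peak in each of the 6 lists, and 78 had none in any. Most members thus had every factor or none, and nearly all genes of the polymerase II and III types had every factor. The share of all annotated genes with no peak in any list was not counted. Whether such a split is particular to the members was therefore not tested.

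All 9 polymerase III type genes had a peak in all 6 lists. Of the 33 polymerase II type genes, 32 had a peak of OCT2, MED1, CREBBP and EP300, and 31 had one of OCA-B and OCT1. RNU4ATAC, the RNA partner of U6atac in the minor spliceosome, and RNU7-1, the U7 RNA of histone mRNA 3′ end processing, also had a peak in all 6 lists. Protein-coding genes, 19821 in all, had a peak in 33.9% (MED1), 31.3% (CREBBP), 45.8% (EP300), 46.6% (OCA-B), 41.2% (OCT2) and 42.2% (OCT1) of cases and in all 6 lists in 22.0%. All 6 lists held a peak by 4.4% of 10352 other annotated genes shorter than 500 bp. The short genes are the closer background, because a short gene gives the same small search window as a small nuclear RNA gene. They are mostly pseudogenes, and the 4111 short genes that are none had a peak in all 6 lists in 8.83% of cases. Of all 10352 short genes, pseudogenes included, 9.51% had a MED1 peak, 9.23% a CREBBP peak and 12.2% an EP300 peak. An OCA-B peak lay by 10.5% of them, an OCT2 peak by 12.3% and an OCT1 peak by 6.32%.

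**Figure D1:**
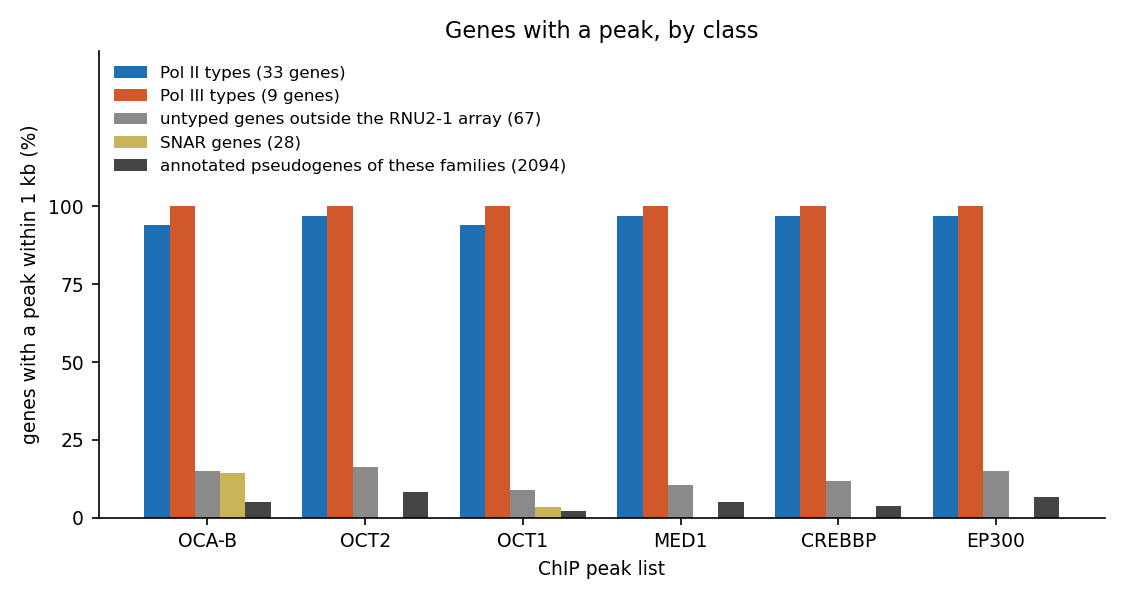
Share of genes with a peak within 1 kb of either end (vertical axis, percent) in each of the 6 ChIP peak lists (horizontal axis), for polymerase II types, polymerase III types, untyped genes outside the RNU2-1 array, SNAR genes and annotated pseudogenes of the same families. Both typed classes stand at 93.9% or more in every list, whereas the pseudogenes stand between 2.1% and 8.17%.

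Among the polymerase II types the exceptions were both variant U1 genes. RNVU1-17 (chr1:143699456-143699619) had no peak in any list, and the nearest peaks lay 28265 (MED1) to 29031 bp (OCT1) away, towards the neighbouring RNVU1-18. RNVU1-1 (chr1:148362370-148362533) had no OCA-B peak nearer than 9062 bp and no OCT1 peak nearer than 27193 bp, and its OCT2 fold of 9.92, MED1 fold of 13.0, CREBBP fold of 9.28 and EP300 fold of 5.84 were low for the class. Its OCT2 pileup was 22 and its MED1 pileup 29, against class medians of 230 and 308. With both these genes set aside, every remaining polymerase II type gene was in all 6 lists.

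Where the factors were present, the cofactors MED1, CREBBP and EP300 had higher median folds at polymerase II types than at polymerase III types. The MED1 peak had a median fold of 38.3 at polymerase II types (13.0 to 71.2, n = 32 genes) and 7.57 at polymerase III types (6.30 to 16.4, n = 9 genes), a ratio of 5.06. Of the 32 polymerase II types with a MED1 peak, 30 lay above the highest polymerase III type, and 7 of the 9 polymerase III types lay below the lowest polymerase II type. Within the MED1 list the median rank was the 99.5th percentile for polymerase II types and the 74.5th percentile for polymerase III types.

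CREBBP and EP300 followed the same direction with a smaller separation. The CREBBP median was 28.0 at polymerase II types (7.87 to 55.0) and 10.9 at polymerase III types (8.40 to 19.5), a ratio of 2.57, and 27 of 32 polymerase II types lay above the highest polymerase III type. The EP300 median was 11.9 at polymerase II types (5.84 to 21.1) and 4.81 at polymerase III types (2.89 to 15.5), a ratio of 2.48. The EP300 ranges overlapped more, and 6 polymerase II types lay above the highest polymerase III type, RNU6-7. That RNU6-7 value came from a peak with its summit 1417 bp from the gene, and the EP300 peak nearest to RNU6-7 had a fold of 4.03.

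The median OCT2 fold was lower at polymerase II types. Its median was 27.6 at polymerase II types (9.74 to 48.8) and 40.1 at polymerase III types (32.2 to 63.7), a ratio of 0.688. All 9 polymerase III types lay above the polymerase II median, and 23 of 32 polymerase II types lay below the lowest polymerase III type. These counts use the strongest peak, and RNU6-7 and RNU6-8 share 1 such OCT2 peak, with its summit by RNU6-8. The OCT2 peak nearest to RNU6-7 was weaker and lay below the polymerase II median. With the nearest summit used for every gene, the medians were 27.6 at polymerase II types and 34.9 at polymerase III types. The OCT2 pileup did not show this difference, with a median of 230 at polymerase II types and 228 at polymerase III types. The background that the fold implies, the pileup plus 1 divided by the fold, had a median of 6.9 at polymerase II types and 5.72 at polymerase III types. These medians of pileup and background do not add up to the ratio of the fold medians, and how much of the OCT2 fold difference lies in the background was not tested.

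OCT1 had a median fold of 10.8 at polymerase II types (6.17 to 35.6) and 16.2 at polymerase III types (6.16 to 29.5), a ratio of 0.667, with overlapping ranges. OCA-B was near parity, with a median fold of 16.5 at polymerase II types (5.74 to 25.2) and 14.0 at polymerase III types (6.69 to 28.7), a ratio of 1.18. No polymerase II type exceeded the highest polymerase III type in OCA-B, which was RMRP. The OCT1 pileup median was 88 at polymerase II types and 105 at polymerase III types. The OCA-B pileup median was 121 at polymerase II types and 77 at polymerase III types.

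**Figure D2:**
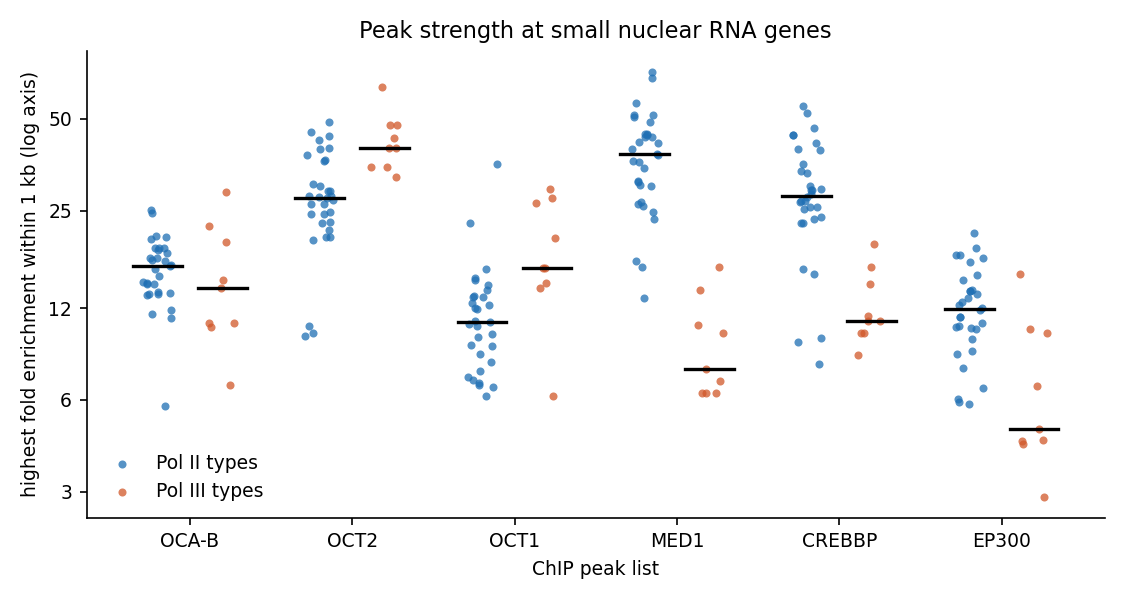
Highest fold enrichment of a peak within 1 kb of each gene (vertical axis, log scale) in the 6 peak lists (horizontal axis), with polymerase II types at the left and polymerase III types at the right of each pair. Each point is a gene and the bar is the class median. The MED1 median is 38.3 at polymerase II types and 7.57 at polymerase III types, and the OCT2 median is 27.6 at polymerase II types and 40.1 at polymerase III types.

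Pileup gave the same picture as fold for MED1, CREBBP and EP300. The MED1 pileup median was 308 at polymerase II types and 58 at polymerase III types. The CREBBP pileup median was 156.5 at polymerase II types and 55 at polymerase III types, and that of EP300 was 115.5 at polymerase II types and 61 at polymerase III types. Pileup has an upper bound in these lists. With 1 tag kept per position and strand, no more than 2 times the fragment length can overlap, which is 348 for MED1 and 290 for OCT2, and the highest pileups in the lists were 348 and 290. The median MED1 peak of the polymerase II types stood at 88.5% of its bound and 22 of them stood above 80%, whereas the polymerase III types stood at 16.7%. The median OCT2 peak stood at 79.3% of the bound at polymerase II types and 78.6% at polymerase III types. Near the bound further binding cannot raise the pileup, so how far OCT2 differed between the classes could not be read from pileup.

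Set against the protein-coding genes that had a peak, the polymerase II types stood high in MED1. The protein-coding median MED1 fold was 6.08 and the 99th percentile was 37.7, and 0.997% of those 6721 genes exceeded the polymerase II median. The polymerase III median MED1 fold was exceeded by 33.4% of them. For OCT2 the positions were exchanged, and 4.43% of 8171 protein-coding genes exceeded the polymerase II median against 1.29% for the polymerase III median. For EP300 the polymerase III median of 4.81 lay below the protein-coding median of 6.67, and 76.3% of 9079 protein-coding genes exceeded it. The same share was 18.9% for the polymerase II median.

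Gene by gene, the ratio of MED1 fold to OCT2 fold separated the classes without overlap. It was 0.615 to 2.58 at the 32 polymerase II types, with a median of 1.31, and 0.132 to 0.394 at the 9 polymerase III types, with a median of 0.181. The ratio of CREBBP fold to OCT2 fold had a median of 1.06 at polymerase II types (0.238 to 1.89) and 0.271 at polymerase III types (0.207 to 0.468), and these ranges overlapped. OCA-B over OCT2 had a median of 0.562 at polymerase II types (0.294 to 1.06) and 0.342 at polymerase III types (0.192 to 0.568). OCT1 over OCT2 had a median of 0.439 at polymerase II types and 0.348 at polymerase III types. These ratios combine folds of different lists, and their absolute size has no meaning outside these libraries.

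**Figure D3:**
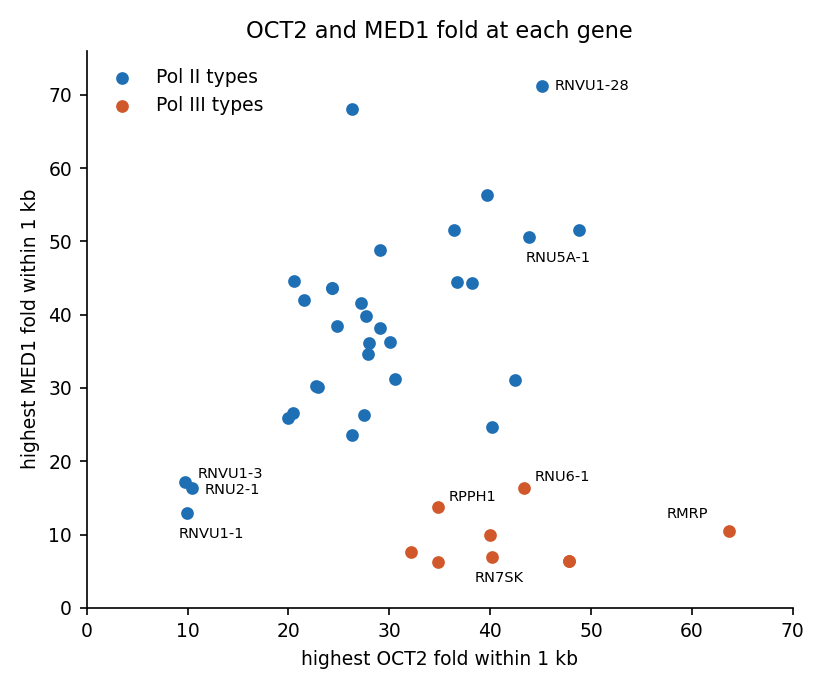
Highest OCT2 fold (horizontal axis) against highest MED1 fold (vertical axis) within 1 kb of each typed gene, polymerase II types in blue and polymerase III types in orange. The 9 polymerase III types lie at OCT2 folds of 32.2 to 63.7 with MED1 folds of 16.4 or less, below the polymerase II types of the same OCT2 fold.

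The polymerase III types were examined 1 by 1. RMRP (chr9:35657750-35658019), the RNA of the mitochondrial and pre-rRNA processing enzyme RNase MRP, had an OCT2 fold of 63.7, which no other typed gene reached. Its OCA-B fold was 28.7, its OCT1 fold 20.4, its MED1 fold 10.5, its CREBBP fold 14.4 and its EP300 fold 4.81. RMRP thus paired the highest OCT2 and OCA-B folds of all typed genes with a MED1 fold below every polymerase II type.

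RPPH1 (chr14:20343071-20343411), the RNA of RNase P, which trims the 5′ ends of tRNAs, had folds of 34.9 (OCT2), 26.5 (OCT1), 19.8 (OCA-B), 16.3 (CREBBP), 13.7 (MED1) and 9.93 (EP300). The strongest OCT1 peak had its summit 924 bp from RPPH1, and the OCT1 peak nearest to it had a fold of 18.3. RN7SK (chr6:52995620-52995951), the RNA that holds the elongation factor P-TEFb inactive, had folds of 40.1 (OCT2), 14.0 (OCT1), 10.4 (OCA-B), 8.40 (CREBBP), 6.93 (MED1) and 4.42 (EP300). Its OCT2 summit lay 162 bp outside the gene, and a second, weaker OCT2 peak with a fold of 6.61 had its summit inside it.

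The U6 RNA forms the catalytic core of the major spliceosome. RNU6-1 (chr15:67839939-67840045) had an OCT2 fold of 43.3 and a MED1 fold of 16.4, the highest MED1 fold among polymerase III types. RNU6-2 (chr19:1021522-1021628) had an OCT2 fold of 40.0 and an OCT1 fold of 29.5, the highest OCT1 fold of the class. RNU6-9 (chr19:893484-893590) had an OCT2 fold of 32.2 and a MED1 fold of 7.57. The 5 U6 genes ranged from 32.2 to 47.8 in OCT2, from 6.33 to 16.4 in MED1 and from 10.7 to 22.2 in OCA-B.

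RNU6-7 (chr14:32202045-32202151) and RNU6-8 (chr14:32203163-32203269) lie within 1.23 kb and share their strongest peak in every list except EP300. Both were therefore given an OCT2 fold of 47.8 and a MED1 fold of 6.33, with the summits by RNU6-8. The OCT2 peak nearest to RNU6-7 had a fold of 18.2, and no MED1 summit lay within 1 kb of it, the nearest being 1041 bp away. RNU6ATAC, the U6 counterpart of the minor spliceosome (chr9:134164439-134164564), had an OCT2 fold of 34.8 and the lowest EP300 fold of the class, 2.89, with an OCA-B fold of 6.69, an OCT1 fold of 6.16, a MED1 fold of 6.30 and a CREBBP fold of 10.9.

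Of the polymerase II types, U1 recognises the 5′ splice site. RNVU1-28 (chr1:144560666-144560829) had the highest summed fold of the U1 genes, with 71.2 in MED1, 45.1 in OCT2, 44.2 in CREBBP, 24.6 in OCA-B, 17.9 in EP300 and 8.46 in OCT1. The 16 variant U1 genes with peaks had a median MED1 fold of 43.2 (13.0 to 71.2), and RNU1-1 to RNU1-4 had a median of 28.4 (25.9 to 30.3). The 4 RNU1 genes stood close together in every list, with OCT2 folds of 20.0 to 22.9 and CREBBP folds of 22.8 to 29.2. The MED1 pileups of RNU1-1 to RNU1-4 were 322 to 340, near the bound of 348, so the lower folds of these genes did not come with lower pileups. RNVU1-3, chosen for mention after its values were seen, had an OCT2 fold of 9.74, a MED1 fold of 17.1 and an OCA-B fold of 5.74, and it lies within 50 kb of RNVU1-1.

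U2 pairs with the branch point. RNU2-2 (chr11:62841619-62841809, inside the protein-coding gene WDR74) had the highest summed fold of the U2 genes, with 31.3 in MED1, 30.6 in OCT2, 26.6 in CREBBP, 16.6 in OCA-B, 10.4 in OCT1 and 10.4 in EP300. RNU2-63P, which the annotation holds as an snRNA although its symbol ends like that of a pseudogene, had an OCT2 fold of 40.2 and a MED1 fold of 24.7, and its ratio of MED1 to OCT2 of 0.615 was the lowest of the polymerase II types. RNU2-1 belongs to the array described further on.

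U4 and U5 join U6 in the tri-snRNP. RNU4-1 (chr12:120293093-120293237) and RNU4-2 (chr12:120291759-120291903) share their strongest peak in every list, with folds of 43.7 in MED1, 25.8 in CREBBP, 24.4 in OCT2, 18.9 in OCA-B, 13.0 in OCT1 and 11.3 in EP300. RNU5A-1 (chr15:65296051-65296167) had the highest summed fold of the U5 genes, with 50.6 in MED1, 43.9 in OCT2, 41.5 in CREBBP, 35.6 in OCT1, 25.2 in OCA-B and 13.6 in EP300. The highest MED1 fold of the U5 genes was that of RNU5F-1, 56.4. The OCT1 and OCA-B folds of RNU5A-1 were the highest of the polymerase II types. The 5 U5 genes ranged from 23.6 to 56.4 in MED1 and from 26.3 to 43.9 in OCT2.

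U11 and U12 recognise the 5′ splice site and the branch point of minor introns. RNU11 (chr1:28648600-28648734, within 1 kb of an end of TAF12) had folds of 36.3 in MED1, 39.5 in CREBBP, 30.1 in OCT2, 18.8 in OCA-B, 15.4 in EP300 and 9.0 in OCT1. RNU12 (chr22:42615244-42615393, within 1 kb of an end of POLDIP3) had folds of 42.5 in OCT2, 31.0 in MED1, 22.8 in OCT1, 15.5 in CREBBP, 13.4 in OCA-B and 10.7 in EP300. RNU4ATAC, inside CLASP1, had a MED1 fold of 29.2 and an OCT2 fold of 16.8, and RNU7-1, at an end of C12orf57, had a MED1 fold of 34.4 and an OCT2 fold of 26.6. Both lay within the MED1 range of the polymerase II types and above that of the polymerase III types.

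A protein-coding gene end lay within 1 kb of 4 of the 33 polymerase II types and of 5 of the 9 polymerase III types. The protein-coding neighbours of the polymerase III types were GSTA4 at RN7SK, CCDC107 at RMRP, PARP2 at RPPH1, MED16 at RNU6-9 and TMEM259 at RNU6-2. Peaks near these genes may be those of the neighbour, and the part of the neighbour in the values was not tested. Without these genes the EP300 median of the 4 remaining polymerase III types was 7.27, against 4.81 with them, which RNU6-7 and its distant peak enter.

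The promoter windows of neighbouring genes allowed a look at the sequence around some members. RefSeq promoter windows of GRCh38.p14, each of 300 bases, were used where a window came within 350 bp of a typed member, and this gave 14 windows next to 11 members. The exact octamer ATGCAAAT, searched on both strands, stood in windows next to 5 of these members, 2 of 5 polymerase II types and 3 of 5 polymerase III types. The same motif stood in 615 of 34789 promoter windows of all genes (1.77%). With at most 1 mismatch the motif stood in windows next to 7 of the 11 members (9 of the 14 windows, of which 3 overlap beside RNU2-63P), against 17.0% of all promoter windows. The windows belong to the neighbouring genes, so they cover the space beside the small nuclear RNA genes only in part, and a match is a description of the letters only.

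The 5 windows with the octamer are shown because the octamer is the motif read by OCT1 and OCT2 and stands in each beside a peak of both. Each sequence runs 5′ to 3′ in the direction of the neighbouring gene, with the octamer in capitals, which reads ATTTGCAT where it lies on the opposite strand. The windows are those of CCDC107 next to RMRP (chr9:35658042-35658341, plus strand), SIRT4 next to RNU4-2 (chr12:120291939-120292238, plus strand), PARP2 next to RPPH1 (chr14:20343385-20343684, plus strand), MED16 next to RNU6-9 (chr19:893138-893437, minus strand) and LOC105374852 next to RNU2-63P (chr2:88016628-88016927, plus strand).
RMRP side of CCDC107: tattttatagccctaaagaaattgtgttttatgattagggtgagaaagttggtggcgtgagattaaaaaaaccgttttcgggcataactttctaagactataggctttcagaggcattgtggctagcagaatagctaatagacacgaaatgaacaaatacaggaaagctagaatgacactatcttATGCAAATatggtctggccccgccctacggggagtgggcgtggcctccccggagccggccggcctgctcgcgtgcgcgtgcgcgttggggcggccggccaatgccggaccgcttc
RNU4-2 side of SIRT4: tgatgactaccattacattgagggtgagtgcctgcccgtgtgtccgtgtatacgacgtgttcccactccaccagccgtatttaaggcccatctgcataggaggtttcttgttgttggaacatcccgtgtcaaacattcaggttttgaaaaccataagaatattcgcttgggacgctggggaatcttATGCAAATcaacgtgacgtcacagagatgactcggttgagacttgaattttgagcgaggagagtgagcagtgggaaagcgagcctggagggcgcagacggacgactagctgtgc
RPPH1 side of PARP2: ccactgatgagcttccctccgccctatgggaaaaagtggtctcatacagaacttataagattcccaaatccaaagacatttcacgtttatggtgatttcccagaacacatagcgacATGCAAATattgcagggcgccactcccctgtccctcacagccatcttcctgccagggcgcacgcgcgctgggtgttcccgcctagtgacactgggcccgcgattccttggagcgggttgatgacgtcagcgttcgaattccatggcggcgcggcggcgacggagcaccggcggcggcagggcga
RNU6-9 side of MED16: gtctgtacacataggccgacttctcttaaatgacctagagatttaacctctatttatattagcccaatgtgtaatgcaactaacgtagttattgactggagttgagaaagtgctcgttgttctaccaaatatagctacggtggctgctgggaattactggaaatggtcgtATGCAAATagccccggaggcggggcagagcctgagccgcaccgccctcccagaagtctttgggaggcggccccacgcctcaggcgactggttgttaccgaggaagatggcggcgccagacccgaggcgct
RNU2-63P side of LOC105374852: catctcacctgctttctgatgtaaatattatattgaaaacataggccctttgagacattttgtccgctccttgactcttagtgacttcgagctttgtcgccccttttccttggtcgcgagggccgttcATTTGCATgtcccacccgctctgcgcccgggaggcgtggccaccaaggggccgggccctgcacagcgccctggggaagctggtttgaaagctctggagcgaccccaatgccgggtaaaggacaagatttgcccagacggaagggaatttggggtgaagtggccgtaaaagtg

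The distance between the member and the octamer was 208 bp for RMRP, 222 bp for RNU4-2, 90 bp for RPPH1, 217 bp for RNU6-9 and 209 bp for RNU2-63P. The nearest OCT2 summit of the member lay 27 bp from the octamer at RNU4-2, 39 bp at RPPH1, 79 bp at RNU6-9, 94 bp at RMRP and 106 bp at RNU2-63P. The nearest OCT1 summit lay 6 bp from it at RPPH1, 38 bp at RNU4-2, 73 bp at RNU6-9, 83 bp at RNU2-63P and 103 bp at RMRP. MED1 summits were farther from the octamer than those of OCT1 and OCT2 in all 5 windows, at 67 bp (RPPH1), 123 bp (RNU6-9), 168 bp (RMRP), 279 bp (RNU2-63P) and 294 bp (RNU4-2). OCA-B summits lay nearer than MED1 summits at RNU6-9 (82 bp), RMRP (94 bp) and RNU2-63P (104 bp). They lay farther than MED1 summits at RPPH1 (106 bp) and RNU4-2 (304 bp).

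A TATAAA box, present in 11.6% of all promoter windows, stood 26 bp from RMRP and 99 bp from RNU6-9, and also 30 bp from RNU7-1 in the window of C12orf57. The core of the ZNF143 motif, searched on both strands and matched in 1.73% of all promoter windows, stood in the GSTA4 window 144 bp from RN7SK, with the OCT1 summit 20 bp and the EP300 summit 13 bp away. No exact octamer stood in that window.

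Summits of the factors were placed on an axis along each gene. The annotation used here gives no strand, so the distance was taken from the gene end on the side of the nearest OCT1 summit, a choice that places OCT1 outward by construction. OCT1 summits lay outside the gene in 28 of 31 polymerase II types, with a median distance of 152 bp over the 31, and in 9 of 9 polymerase III types, with a median of 165 bp. MED1 summits lay inside the gene in 30 of 32 polymerase II types and in 3 of 9 polymerase III types. OCA-B summits lay inside the gene in 24 of 31 polymerase II types and in 3 of 9 polymerase III types. The median distance between the OCT1 and the MED1 summit along this axis was 245 bp at polymerase II types and 86 bp at polymerase III types. The median MED1 peak stood at 88.5% of the pileup bound at polymerase II types and 16.7% at polymerase III types. The place of a summit is less sure near the bound. Gene lengths also ranged from 102 bp (RNU5D-1) to 341 bp (RPPH1). The part of the bound and of gene length in these MED1 values was not tested.

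OCT2 summits differed in place between types. They lay inside the gene in 19 of 20 U1 genes, at RNU11 and at RNU2-1, whereas at the U4, U5 and U12 genes, RNU2-2 and RNU2-63P none of 10 lay inside, and the distances were 103 to 209 bp with a median of 179 bp. At polymerase III types 1 of 9 nearest OCT2 summits lay inside the gene, that of RN7SK, whose strongest OCT2 summit lay outside. The 5 U6 genes had OCT2 summits 103 to 146 bp from the gene and OCT1 summits 144 to 192 bp from it. OCT2 peaks of the polymerase II types were wide, with a median of 1598.5 bp against 722 bp at polymerase III types, and near the pileup bound a summit is 1 base on a broad top, so its place is less sure there.

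**Figure D4:**
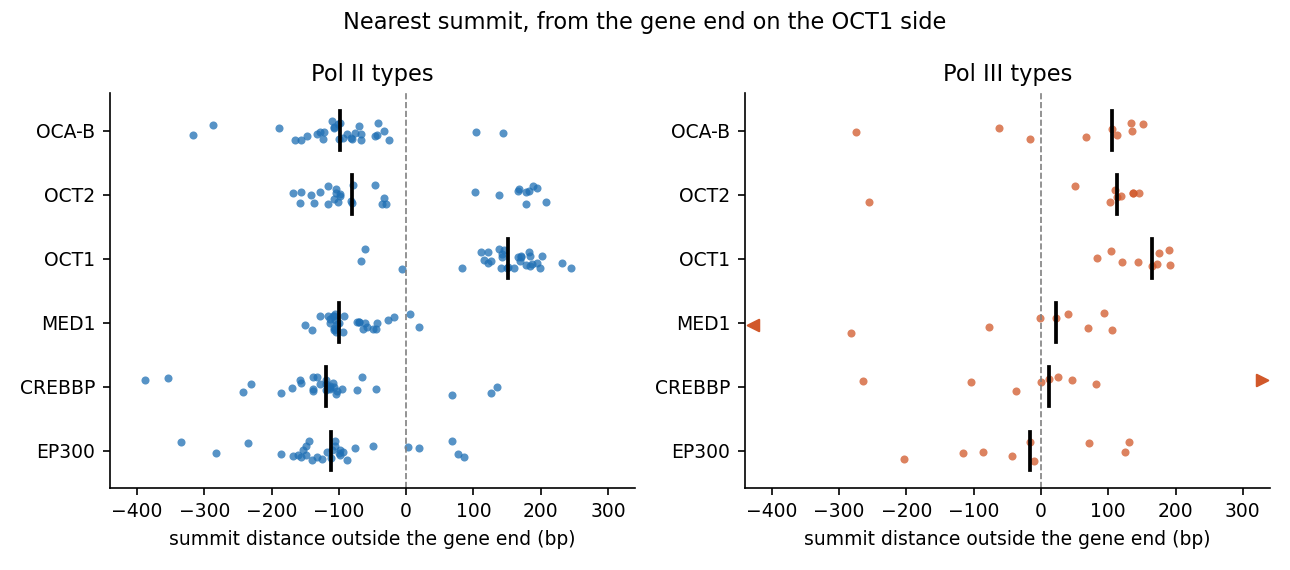
Position of the nearest summit of each factor (rows) in base pairs outside the gene end on the side of the OCT1 summit (horizontal axis, 0 at the gene end, negative towards or inside the gene), for polymerase II types at the left and polymerase III types at the right. Each point is a gene, the bar is the median, and 2 triangles at the edge are RNU6-7 summits beyond the axis (MED1 at -1147.5 bp, CREBBP at 976.5 bp). The MED1 median is -99.5 bp at polymerase II types and 22.5 bp at polymerase III types. Most MED1 peaks of polymerase II types stand near the pileup bound, where the place of a summit is less sure.

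Multi-copy arrays were defined as copies of the same type no more than 50 kb apart. There were 12 arrays with 53 copies, and 4 of them held 3 or more copies. By that rule the array on chromosome 17 holds 12 untyped genes over 60.3 kb. With members of any type joined, RNU2-1 stands at its start, and this run of 13 copies (chr17:43233790-43300231, 66.4 kb, copies of 188 to 192 bp) is called the RNU2-1 array here. Neighbouring starts are 1259 to 14804 bp apart, with a median of 5504 bp. All 13 copies had a peak in all 6 lists, over 11 (OCA-B) or 12 (the other lists) distinct strongest peaks. The untyped genes of the array have about the length of RNU2-1, but the annotation used here gives them no type, and they are not counted as U2.

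Folds over the RNU2-1 array lay within a narrow range in all lists except OCT1. MED1 folds were 15.2 to 24.6 (median 17.8), OCT2 folds 10.5 to 21.8 (median 17.1), OCA-B folds 10.9 to 19.6 (median 13.3), CREBBP folds 16.1 to 30.9 (median 22.5) and EP300 folds 6.57 to 12.3 (median 7.79). OCT1 folds were 4.43 to 15.4 with a median of 14.2. The folds of the array were below those of most polymerase II types in MED1 and OCT2, whereas the MED1 pileup at RNU2-1 was 329 and the OCT2 pileup 232, near the bounds. OCT1 and MED1 had 25 and 27 peaks over the array, and the other lists 13 or 14, since OCT1 and MED1 also had smaller peaks beside and between the copies.

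**Figure D5:**
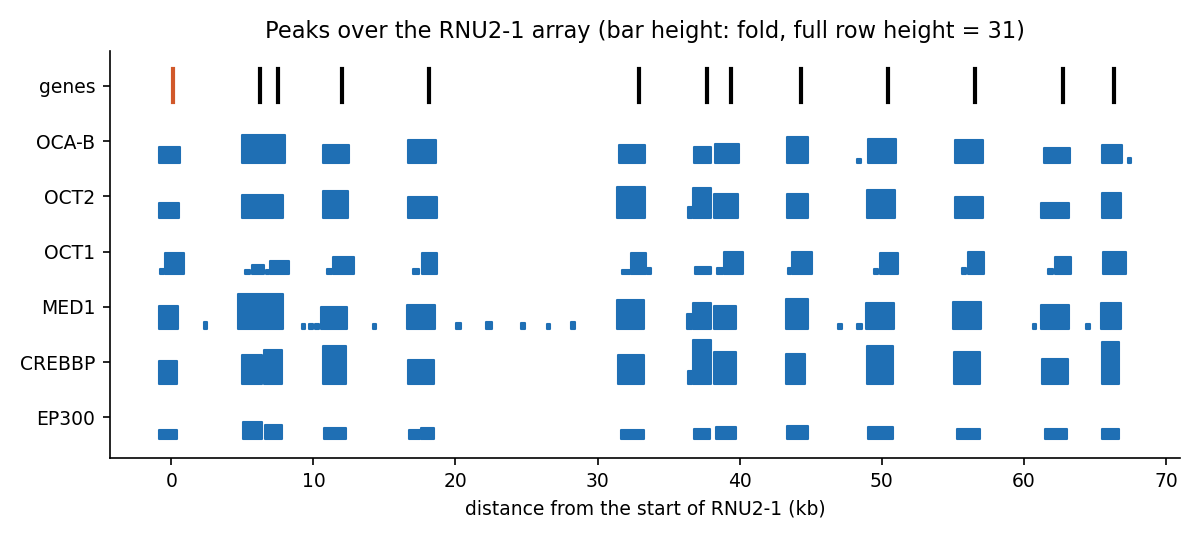
Peaks of the 6 lists (rows below the genes) along the RNU2-1 array, with the distance from the start of RNU2-1 in kb on the horizontal axis. Bars span each peak, with height proportional to its fold, and vertical marks are the genes, RNU2-1 in orange and the 12 untyped copies in black. Every copy has a peak in each list.

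The other arrays of typed genes were small. RNVU1-26, RNVU1-2A and RNVU1-28 lie within 37.0 kb (chr1:144523860-144560829), and each of the 3 had its own peak in every list, with a highest MED1 fold of 71.2. RNU5A-1 and RNU5B-1 lie within 8.74 kb, and RNU5F-1 and RNU5D-1 within 9.39 kb, again with separate peaks. RNU4-2 and RNU4-1, within 1.48 kb, shared 1 strongest peak in each list. RNVU1-17 and RNVU1-18 lie within 30.1 kb, and the peaks stand at RNVU1-18 alone.

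The SNAR genes formed 3 arrays on chromosome 19 with 10, 2 and 12 copies, and the peaks by SNAR genes were weak. OCA-B peaks lay by 4 of the 28 genes (14.3%, against 10.5% of short genes and 24.6% of all genes). These were SNAR-C4, SNAR-G1, SNAR-A7 and SNAR-B1, with folds of 3.33 to 4.32. An OCT1 peak lay by 1 of the 28 (3.57%, against 6.32% of short genes and 20.5% of all genes), SNAR-C3, with a fold of 3.42. No OCT2, MED1, CREBBP or EP300 peak lay within 1 kb of any of the 28. Of short genes, 12.3% had an OCT2, 9.51% a MED1, 9.23% a CREBBP and 12.2% an EP300 peak. Over the whole span of the array of 10 copies there were 8 OCA-B and 2 OCT2 peaks, most of them farther than 1 kb from a copy's end. A gene without a peak is one for which none was called at these depths, and in arrays of near-identical copies the placing of reads bears on this as well, which was not tested.

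Of the 67 untyped genes outside the RNU2-1 array, 54 had no peak in any list, for which no share over all genes was counted. A peak in all 6 lists lay by 5 of them (7.46%), against 11.1% of all genes, 4.4% of short genes and 8.83% of short genes that are no pseudogenes. LOC124904122 (chr17:58659149-58659305, inside TEX14) had a CREBBP fold of 52.7, an OCT2 fold of 33.4 and a MED1 fold of 32.1. LOC124904147 (chr17:43367899-43368087) had an OCT2 fold of 26.8 and a MED1 fold of 48.8. LOC124904631 (chr1:120354987-120355148) had an OCT2 fold of 25.4 and a MED1 fold of 60.5. LOC124904613 (chr1:146376807-146376970) had an OCT2 fold of 25.3 and a MED1 fold of 31.9. LOC124904139, a copy in the RNU2-1 array, had an OCT2 fold of 21.8 and a MED1 fold of 20.0. The fifth untyped gene outside the array with a peak in all 6 lists, LOC124904634, was added after its values were seen and was weaker, with an OCT2 fold of 8.03, an OCA-B fold of 5.92, an EP300 fold of 5.26 and a MED1 fold of 27.5. The MED1 folds of these 6 genes lay in the range of the polymerase II types and above that of the polymerase III types.

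Annotated pseudogenes of the same families served as a comparison in sequence. There were 2094 of them, and they had a peak in 5.01% (MED1), 3.92% (CREBBP), 6.64% (EP300), 5.21% (OCA-B), 8.17% (OCT2) and 2.1% (OCT1) of cases, and in all 6 lists in 31 cases (1.48%). Of the 1269 U6 pseudogenes 13 had a peak in all 6 lists (1.02%), against 5 of the 5 U6 genes. Of 304 pseudogenes of polymerase II families 10 did (3.29%), and of 1605 of polymerase III families 20 did (1.25%). The short genes used as background above include 2090 of these pseudogenes. Short genes that are no pseudogenes stood at 8.83% in all 6 lists, above the pseudogenes and below the typed genes.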

How the data were processed

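Each ChIP library had 1 deposited peak list. MACS2 2.1.1.20160309, SAMtools 1.3.1, Bowtie2 2.3.2.2 and CASAVA 1.8.2 are listed, with build hg38, per the submitters' processing notes. Per the file headers, narrow peaks were called per library against 1 common control of 37517450 tags after filtering, with 51 bp tags, 1 tag kept per position and a q threshold of 0.05. The redundant rate was 0 in the CREBBP and MED1 lists and 0.08 to 0.2 elsewhere. The deposited lists give fold enrichment over control, −log10 q-value, −log10 p-value and the summit's pileup signal, values made by the authors' peak caller.

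From these lists, peaks on chromosomes 1 to 22 and X were joined to RefSeq GRCh38.p14 genes by an overlap of at least 1 bp with a window of 1 kb around either gene end, in Python 3.11.15 with pandas 2.3.3 and numpy 2.4.6. Per gene and list, the highest fold and the nearest summit were kept. Another 7 genes of these biotypes on scaffolds, patches or chromosome Y were not used. The overlap code was tested on simulated data. Genes named were all polymerase III types, the polymerase II type gene with the highest summed fold per type, approved symbols lacking a list, the 5 untyped genes in most lists (ties by OCT2 fold), and protein-coding neighbours. RNU2-1, RNU2-63P, RNVU1-3, the RNU1 genes and the other array members were added after their values were seen. The promoter table held none of the members' own promoters, so the planned motif count was run on neighbouring windows. The members and lists were chosen with earlier results of these data known. With 1 library per factor no test was run, and the comparisons are counts, medians and ranges beside the same over all genes. Alternatives were windows of 500 bp and 2 kb, the summit in the window, −log10 q over 5, array gaps of 10 and 100 kb, copies as 1 locus, approved symbols, members without a protein-coding end nearby (counts and shares), U4atac and U7 added to the polymerase II types, and 1 mismatch. Added after seeing the data were the nearest summit, each peak once, no variant U1, arrays of any type, and median folds without a protein-coding end nearby.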

Additional observations from a re-analysis of the deposited data

How the results depend on the processing

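No paired analysis was possible because each factor had 1 library. The share of polymerase II types with a peak minus that of polymerase III types was -6.06 percentage points for OCA-B and OCT1 and -3.03 for OCT2, MED1, CREBBP and EP300. It became 0.0 in all 6 lists when copies within 50 kb counted as 1 locus, and also when variant U1 genes were left out. It turned to 8.08 points (97.0% of polymerase II and 88.9% of polymerase III types) for MED1 and CREBBP within 500 bp, and for MED1 where the summit had to lie in the window, through RNU6-7 alone. With approved symbols only, 43 of 72 members had an OCT2 peak and 43 an EP300 peak, against 66 and 65 of 151. The EP300 median fold of polymerase III types was 7.27 without a protein-coding end within 1 kb. The octamer stood in 9 of 14 windows with at most 1 mismatch and in 5 without. The median folds of both classes moved by less than 1.5 times under the nearest summit, the summit in the window, each peak counted once and no variant U1 genes. The counts of members with a peak were within 1.5 times under a window of 500 bp or 2 kb and under −log10 q over 5. The number of arrays was 10 with gaps of 10 kb and 15 with gaps of 100 kb. Limits are 1 library per factor, the pileup bound, shared reads among copies, and the lack of strand.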

Other observations

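Some annotated pseudogenes carried peaks in all 6 lists, and a few are given as values, chosen after they were seen. RNU1-28P had a MED1 fold of 43.6, an OCT2 fold of 32.7 and a CREBBP fold of 61.3, and RNU1-27P had a MED1 fold of 28.7, an OCT2 fold of 38.7 and a CREBBP fold of 56.7. RNVU1-21 and RNVU1-22, which the annotation holds as pseudogenes near the variant U1 genes, had MED1 folds of 37.9 and 31.4 and OCT2 folds of 20.3 and 30.8. RNU2-4P, 19.3 kb from the nearest member, had an OCA-B fold of 34.1 and a MED1 fold of 12.1. RNU6-735P had an OCT2 fold of 42.1, a MED1 fold of 19.0 and a CREBBP fold of 36.2, so its MED1 fold stood above that of every polymerase III type gene. It was not alone in this. The MED1 folds of the U6 pseudogenes in all 6 lists ran from 4.65 (RNU6-669P) to 36.2 (RNU6-1224P). Several stood above and several below 16.4, the highest MED1 fold of the polymerase III types.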
